A study of Homo sapiens with 6 samples.

Results

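The Schlafen family was examined in MiaPaCa-2 cells, an established human pancreatic cancer cell line, after glucose withdrawal. The genes SLFN5, SLFN11, SLFN12, SLFN12L and SLFN13 were taken by symbol from the deposited expression table, and these 5 were found among its 60668 genes. SLFN5 was chosen by its measured rise between the conditions compared here, so that rise is given as a description and not tested, whereas the other 4 were included as relatives of SLFN5. MiaPaCa-2 cells obtained from ATCC were kept for 48 h at 2.5 mM glucose (low glucose, n = 3) or at 25 mM glucose (control, n = 3). No other agent or genetic change is named for either group, and the data cover 1 cell line at 1 time point. The series describes the replicates of each condition as independent and biological. The labels tie low glucose replicates 1 and 2 to columns of the table. The third low-glucose column and the 3 control columns were assigned to their conditions as a run of names and carry no replicate number, so these libraries are referred to by their depth.

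Schlafen proteins are known as interferon-inducible regulators of RNA and DNA metabolism. SLFN11, SLFN12 and SLFN13 can cleave tRNA, and SLFN11 also blocks stressed replication forks and sensitizes tumor cells to drugs that damage DNA. SLFN12 is activated when it binds the phosphodiesterase PDE3A. SLFN5 is a nuclear member known to restrict viral transcription and to act on interferon-responsive genes, and SLFN14 is linked to ribosomes and platelets.

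Reads on genes numbered 9741183, 10126218 and 10190154 in control. They numbered 10841656 in low glucose replicate 1, 10595408 in replicate 2 and 13733477 in the third low-glucose library. The epithelial keratin KRT8 was abundant, with 21362 to 42135 reads per library, whereas the keratin KRT7 had a mean of 7.0 reads. EPCAM (0 to 1 reads) and CDH1 (0 to 3 reads) were nearly absent. VIM, a mesenchymal marker, had 51599 to 107058 reads. Of 9 blood cell markers, 4 had no read in any library, the leukocyte markers PTPRC, CD3E and MS4A1 among them. The other 5 had low counts that passed the filter for testing. The summed levels of the marker lists differed between the conditions. Summed over 6 epithelial markers, CPM (reads scaled to library size) was 5837 to 6795 in control against 3438 to 3610 in low glucose, where 3 of 4 tested markers fell. The other tested marker, KRT7, did not pass (log2 difference 0.85, limma adjusted p = 0.211). Among those that fell, KRT8 and KRT18 share 525 bp of exon with each other on opposite strands. KRT18 had 57.4% of the reads of KRT8, so both values are uncertain. Over 8 mesenchymal markers the sum, most of it VIM, was 5555 to 6101 against 7801 to 8075, with 1 of 7 tested higher and 2 lower. The higher one was VIM (log2 difference 0.42, limma adjusted p = 0.00819), whose call was lost without the control library of 9741183 reads (0.0636) or low glucose replicate 1 (0.0543) or 2 (0.0764), in a span of 3.92e-08 to 0.0764. VIM shares exon with 2 genes on the other strand, VIM-AS1 (656 bp) and ENSG00000234961 (619 bp). They had 31.4% and 39.8% of its reads, so its value is uncertain. The collagen genes COL1A2 (-0.52) and COL3A1 (-2.18) were the 2 that fell. For the 9 blood cell markers the sum was 4.05 to 5.59 against 1.67 to 3.04, with 0 of 5 tested higher and 1 lower. The lower one was CD14 (log2 difference -1.19, limma adjusted p = 0.0196, with 0.0106 to 0.0865 across alternatives). For comparison, 14.7% of all genes tested rose and 16.2% fell. Whether the shifts of the markers have a part in the results on the Schlafen genes was not tested.

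SLFN5 was the only Schlafen gene of the chromosome 17 cluster with more than 1 read in any library, and its transcript level was several times higher after glucose withdrawal. SLFN5 (ENSG00000166750.10) lies on the plus strand at chr17:35243071-35273655 of hg38, and its canonical transcript has 5 exons and encodes 891 amino acids. The control libraries held 97, 93 and 103 reads of SLFN5, in order of rising depth. Low glucose replicates 1 and 2 held 752 and 673 reads, and the third low-glucose library held 822. As normalized counts, which are reads divided by 1 size factor per library, SLFN5 stood at 109, 104 and 110.2 in control. It stood at 723, 665 and 623 in low glucose, so that the lowest low-glucose library was far above the highest control library. The 3 low-glucose values were likewise above the 3 control values for 22.1% of the 21101 genes tested. In bulk RNA, more RNA per cell and more cells of a kind that expresses the gene cannot be told apart.

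The mean normalized count of SLFN5 was 107.5 ± 3.43 (SD, n = 3) in control and 670.3 ± 50.5 (SD, n = 3) in low glucose, a ratio of 6.23. The difference was 2.63 on the log2(normalized count + 1) scale (standard error, SE, 0.102). Between replicates of a condition, the relative level (each library over the control mean) varied from 0.964 to 1.02 in control and from 5.79 to 6.73 in low glucose. SLFN5 was chosen for the gap between the conditions, so this spread describes the libraries and is no test of the gap. With each library left out in turn, the log2 difference stayed between 2.57 and 2.68. By the size of the rise, SLFN5 stood at rank 42 of the 15235 genes with a mean normalized count of at least 10. No exon of SLFN5 overlaps an annotated exon of another gene, on either strand.

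On a scale that allows comparison between genes, TPM (reads scaled to the exon length of a gene and to the library), the level of SLFN5 was 3.04 ± 0.115 (SD, n = 3) in control and 18.1 ± 1.36 (SD, n = 3) in low glucose. Ordered by mean TPM, SLFN5 moved from rank 13175 to rank 6853 of 60295 genes with a known length. Of all 60668 genes, only 28454 had a read in any library, so many of the ranked genes were tied without a read.

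**Figure D1:**
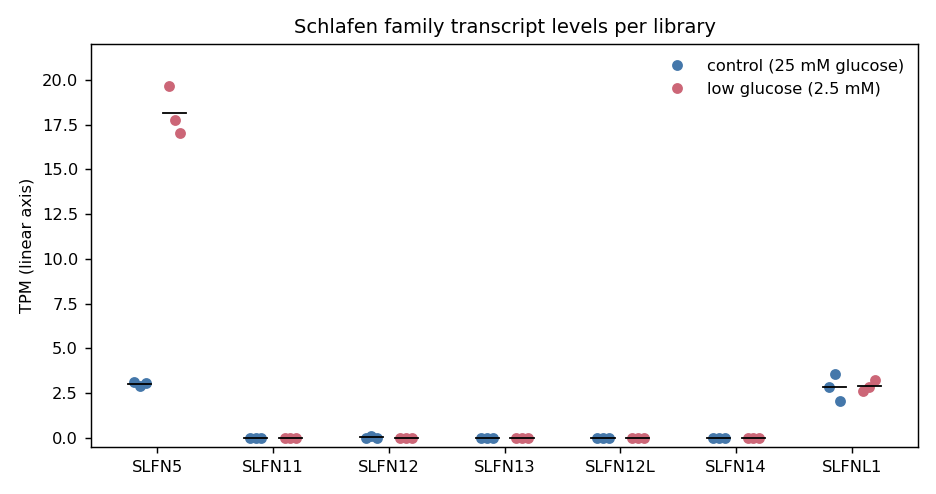
Transcript level of the Schlafen genes in TPM on a linear axis, with 1 point per library for control (blue) and low glucose (red), n = 3 each, and black lines at the means. SLFN5 sits between 2.91 and 3.13 in control and between 17.004 and 19.6 in low glucose, the rest of the chromosome 17 cluster lies at or next to 0, and SLFNL1 of chromosome 1 overlaps between the conditions.

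The relatives of SLFN5 in the cluster were silent in both conditions. SLFN11 (chr17:35350305-35373701, minus strand, 901 amino acids) had 0 reads in each of the 6 libraries. SLFN13 (chr17:35435096-35448837, minus strand, 897 amino acids), a ribonuclease that cuts tRNA and rRNA, also had 0 reads in each of them. SLFN12L (chr17:35464249-35537678, minus strand, 612 amino acids) had 0 reads in each as well. SLFN12 (chr17:35410922-35433283, minus strand, 578 amino acids) had 1 read in the control library of 10126218 reads and 0 in the other 5 libraries. These 4 genes are therefore at or below the level of a few stray reads, and no fold change is given for them. SLFN14 (chr17:35543985-35560819, minus strand, 912 amino acids), the sixth gene of the cluster, had 0 reads in every library. Of the 5 members, 1 passed the filter of a mean normalized count of at least 1, and this was SLFN5.

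The depth sets how low these genes must be. Over the 30057555 reads of the 3 control libraries, a count of 0 allows up to 3 reads, whereas SLFN5 had 293. Per exon length, SLFN5 was at least 54.7-fold above SLFN11, at least 85.4-fold above SLFN13 and at least 124.8-fold above SLFN12L in control. Over the 35170541 reads in low glucose SLFN5 had 2247, and these bounds were 419.8-fold for SLFN11, 655-fold for SLFN13 and 957-fold for SLFN12L. For SLFN12, which had no read in low glucose, the bound there was 257.8-fold. These bounds cover the counting error of the silent genes only, as the reads of SLFN5 were taken as exact. Reads can be lost from genes that resemble each other. Of the 150-base windows of the canonical SLFN11 transcript, 7.35% also occur in SLFN13, and 4.45% of those of SLFN13 occur in SLFN11. SLFN12L shares 7.29% of its windows with a pair of pseudogenes, and SLFN12 and SLFN5 share 0% with any other gene. Most of each of these transcripts was thus distinct at this window length, counting exact matches only. Whether loss of shared reads has a part in the counts of 0 was not tested.

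SLFNL1, a Schlafen-like gene on the minus strand at chr1:41015589-41023237, was the only other family member with more than 1 read in any library. It had 36, 46 and 28 reads in control and 41, 44 and 63 in low glucose (replicate 1, replicate 2 and the third library). The normalized counts of the conditions overlapped, with a log2 difference of 0.13 (SE 0.238, limma adjusted p = 0.725). SLFNL1 shares 1306 bp of exon with SLFNL1-AS1 on the other strand, which had 217% of its reads, so its value is uncertain. In TPM, SLFNL1 stood at 2.83 ± 0.744 (SD, n = 3) in control, within its own spread of the 3.04 of SLFN5. In low glucose it stood at 2.91 ± 0.289 (SD, n = 3), far below the 18.1 of SLFN5.

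Short promoter stretches of the silent members are shown because this family is known for induction through interferon response elements. RefSeq promoter windows (GRCh38.p14, 250 bases before to 50 after the start) were matched for 3 genes of the cluster, SLFN11, SLFN12 and SLFN12L, and not for SLFN5, SLFN13 and SLFN14. These were searched on both strands for the interferon-stimulated response element (GAAA, any 2 bases, GAAA), the gamma-activated site TTCNNNGAA, the C/EBP-ATF element TTGCATCA and the ETS site CCGGAAGT, which stand in capitals.
SLFN12L, interferon-stimulated response element, chr17:35537785-35537814, minus strand: agaattctgaGAAATGGAAActttaaaaag
SLFN12L, gamma-activated site, chr17:35537791-35537820, minus strand: agtaggagaaTTCTGAGAAatggaaacttt
SLFN12L, gamma-activated site, chr17:35537745-35537774, minus strand: tctagtttcaTTCTCAGAAataccaaagca
SLFN11, gamma-activated site, chr17:35373784-35373813, minus strand: aatccccaaaTTCCCGGAAactaagaacta
SLFN12, ETS site (on the opposite strand), chr17:35433252-35433281, minus strand: agagtgcggacACTTCCGGagcgccagctg

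In SLFN12L the interferon-stimulated response element begins 126 bases before the start and overlaps the gamma-activated site that begins 132 bases before it. Among all 35116 promoter windows, 3.57% held the interferon-stimulated response element, 7.66% the gamma-activated site, 0.866% the C/EBP-ATF element and 4.14% the ETS site. The C/EBP-ATF element was not in these 3 windows. SLFN11 had 18 CpG dinucleotides in its window, SLFN12 had 13 and SLFN12L had 2, where the median of all windows was 14. The matches describe letters in the reference and were not read as sites in use.

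The next question was whether the rise extended to other genes around SLFN5. The 6 Schlafen genes span 317.7 kb, and 49 further genes of the table lie in the cluster or within 250 kb of its ends. Of these 49, 13 passed the filter on low values and 28 had no read. Among the 13, 0 rose, 3 fell and 10 did not pass the test. Across all genes, 14.7% rose and 16.2% fell in low glucose (limma adjusted p under 0.05, 30.9% in either direction). Leaving out the control library of 10190154 reads let 1 neighbor pass as higher, TAF15, an RNA-binding protein (limma adjusted p = 0.0205, 0.253 with all libraries, and 0.0205 to 0.588 across alternatives). The median log2 difference of the 13 tested neighbors was -0.13, against 0.049 over all genes tested.

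Downstream of SLFN5, the next gene with more than 3 reads in any library was SNHG30, a noncoding snoRNA host, 294 kb away. Between them lie 25 genes of the table, the other 5 Schlafen genes among them, of which 23 had no read in any library. The other 2, SLFN12 and a pseudogene, had 3 reads in all 6 libraries together. SNHG30 had 89 to 159 reads in control against 106 to 157 in low glucose, and its log2 difference of -0.21 (SE 0.176, limma adjusted p = 0.415) did not pass. It did pass when the control library of 10126218 reads was left out (limma adjusted p = 0.0352, with 0.0352 to 0.946 across alternatives).

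Upstream of SLFN5, a long noncoding RNA on the opposite strand, ENSG00000266947, ends 107 bp from the SLFN5 start. It had 8, 1 and 3 reads in control and 4, 22 and 8 in low glucose (replicate 1, replicate 2 and the third library). The conditions overlapped for this transcript, with a log2 difference of 1.04 (SE 0.659, limma adjusted p = 0.254). Low glucose replicate 2 held most of its reads in that condition.

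The 3 neighbors that passed the test were all lower in low glucose. RASL10B, a Ras-like GTPase gene, had a normalized count of 518 ± 78.3 (SD, n = 3) in control and 323 ± 13.2 (SD, n = 3) in low glucose, a log2 difference of -0.67 (SE 0.108, limma adjusted p = 2.99e-04). LIG3, a DNA ligase, fell from 930.3 ± 125.8 (SD, n = 3) to 689 ± 5.99 (SD, n = 3), a log2 difference of -0.42 (SE 0.0966, limma adjusted p = 0.00399). Without the variance trend LIG3 no longer passed (0.0700, with 6.84e-05 to 0.0700 across alternatives). LIG3 shares 3754 bp of exon with RFFL on the other strand, whose log2 difference was -0.13 (limma adjusted p = 0.364). AP2B1, a subunit of the clathrin adaptor, had a log2 difference of -0.40 (SE 0.101, limma adjusted p = 0.00816). AP2B1 no longer passed once low glucose replicate 1 (0.0601) or replicate 2 (0.0509) was left out, with 3.65e-04 to 0.104 across alternatives. MMP28, a matrix metalloproteinase, had 0 to 2 reads in control against 2 to 11 in low glucose and missed the threshold (log2 difference 1.34, SE 0.668, limma adjusted p = 0.146).

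**Figure D2:**
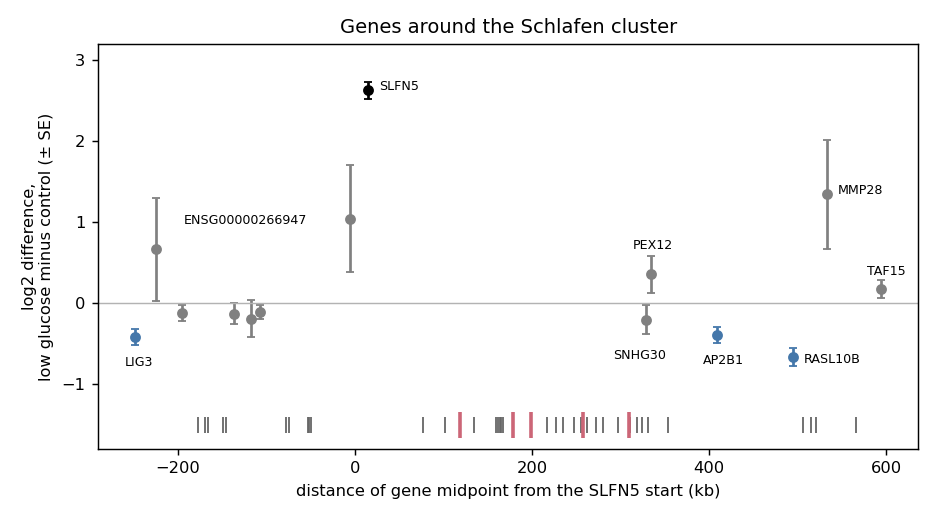
Log2 difference (low glucose minus control, with the standard error) of the genes around the Schlafen cluster against the distance of each gene's midpoint from the SLFN5 start in kb. SLFN5 is black at 2.63, the 3 genes that fell (LIG3, AP2B1 and RASL10B) are blue, those that did not pass are gray, ticks at the bottom mark genes with a mean under 1, and the taller red ticks are the 5 silent Schlafen genes.

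Because Schlafen genes belong to the interferon-stimulated genes, the interferon pathway was examined from ligand to target. None of 10 interferon genes, IFNB1 and IFNG among them, had more than 1 read in any library, and 9 had none. All 6 receptor chains were tested, and 1 of them fell (16.7%, against 16.2% of all genes tested). IFNAR1, a chain of the type I interferon receptor, had a log2 difference of -0.25 (SE 0.0782, limma adjusted p = 0.0261). This call was lost without the control library of 9741183 reads (0.104), without low glucose replicate 1 (0.0737) or 2 (0.0896), and without the third library (0.106), with 0.00903 to 0.116 across alternatives. IFNAR2 (log2 difference -0.20), IFNGR1 (0.28), IFNGR2 (0.038), IFNLR1 (0.061) and IL10RB (1.65, from 0 to 1 reads in control against 2 to 6 in low glucose) missed the threshold, their limma adjusted p running from 0.0681 to 0.945. Scaling by library size left IFNAR1 without a call and gave one to IFNGR1 (limma adjusted p = 0.0491, 0.0170 to 0.286 across alternatives), as did leaving out the control library of 10190154 reads (0.0170). IL10RB passed without that library (0.0442). With all 6 libraries it passed without the filter on low values (0.0393) or the variance trend (0.0391). Its span was 0.0391 to 0.235 across alternatives. The mean normalized count of IL10RB was 0.357 in control and 3.14 in low glucose. It thus met the filter through low glucose only, and these passes are not read as a rise. IFNAR2 and IFNGR2 share exons with genes on the other strand of similar read numbers, so their values are uncertain.

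Of 13 kinases, transcription factors and inhibitors below the receptors, 3 rose, 4 fell and 6 did not pass (median log2 difference -0.074). The called share was 53.8%, against 30.9% of all genes tested. STAT2, a transcription factor of the type I interferon response, had 169 to 206 reads in control against 303 to 402 in low glucose and rose, with a log2 difference of 0.59 (SE 0.105, limma adjusted p = 7.01e-04). STAT3 fell, with a log2 difference of -0.70 (SE 0.0876, limma adjusted p = 3.50e-05). SOCS3, a feedback inhibitor of cytokine signaling, also fell (-0.87, SE 0.158, limma adjusted p = 7.81e-04). The components thus moved in both directions. JAK1 (0.27, limma adjusted p = 0.0166) and IRF1 (0.40, limma adjusted p = 0.0171) passed in the higher direction. JAK1 lost its call without the control library of 9741183 reads (0.0632), low glucose replicate 1 (0.0767) or 2 (0.0689) or the third low-glucose library (0.0600), in a range of 5.62e-04 to 0.0909. IRF1, which shares 2805 bp of exon with IRF1-AS1 on the other strand, lost it without the same control library (0.0757), replicate 1 (0.0826) or the third low-glucose library (0.0653), in a range of 0.00451 to 0.0826. Leaving out 1 library gave 3 to 8 called genes in this list, and 3 without low glucose replicate 1 or without the control library of 9741183 reads.

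Of 42 interferon-stimulated genes outside the Schlafen family, 38 were tested, 4 rose (10.5%) and 9 fell (23.7%). Over all genes tested, 14.7% rose and 16.2% fell. With 34.2% called against 30.9% of all genes, the list was near the general share. The median log2 difference of the 38 was -0.11, and 16 of them were positive. The largest of the 4 rises, far below the 2.63 of SLFN5, was in DHX58, a cytosolic sensor of viral RNA, with 43 to 54 reads in control, 111 to 146 reads in low glucose and a log2 difference of 1.17 (SE 0.173, limma adjusted p = 1.43e-04). OASL (0.42, SE 0.0868, limma adjusted p = 0.00188), an antiviral protein, rose as well. IFI35 (0.64, limma adjusted p = 0.0222) passed, but not without the control library of 9741183 reads (0.104) or low glucose replicate 1 (0.133) or 2 (0.0904), in a range of 0.00517 to 0.133. ISG15, a ubiquitin-like modifier named after its value was seen, passed narrowly (0.44, limma adjusted p = 0.0429). It held only when the control library of 10190154 reads was the one left out (0.00421), and not without any of the other 5 libraries (0.0536 to 0.167), with 0.00421 to 0.211 across alternatives. IFITM1, a membrane protein that blocks virus entry, fell from 270 to 325 reads in control to 156 to 191 in low glucose, with a log2 difference of -1.08 (SE 0.108, limma adjusted p = 5.12e-06). ADAR (-0.47), an RNA editing enzyme, and IFI6 (-0.87) fell too, with limma adjusted p-values of 0.00213 and 0.00275, and ADAR no longer passed without the variance trend (0.0664, with 2.50e-05 to 0.0664 across alternatives). The split of the list turned with the scaling: library size gave 8 higher and 6 lower. It was also smaller, with 8 called genes, without the control library of 9741183 reads and without each of the 3 low-glucose libraries.

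**Figure D3:**
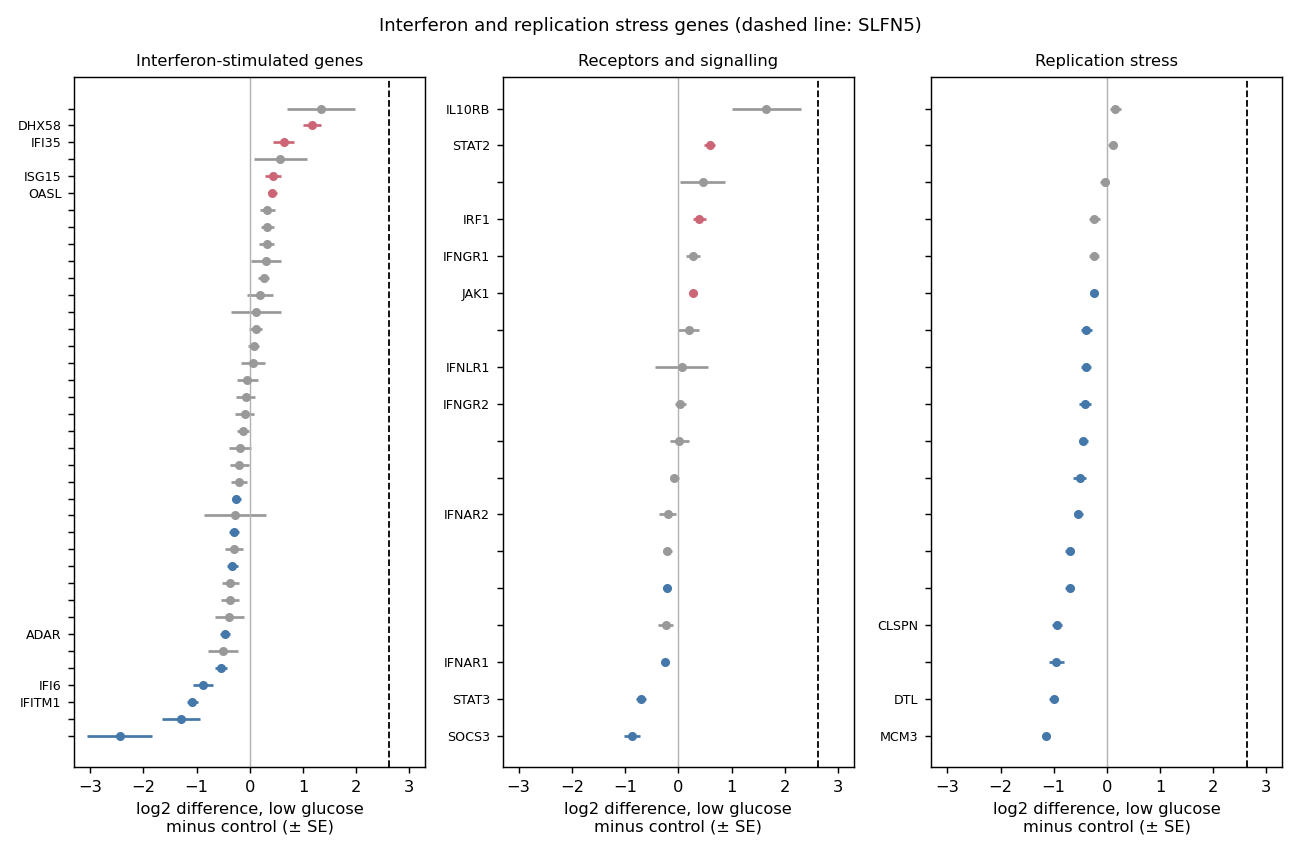
Log2 difference (low glucose minus control, with the standard error) of the tested interferon-stimulated genes, interferon receptor or signaling genes, and replication stress genes reported here, with those named in the text labeled. Red genes rose, blue genes fell and gray genes did not pass (limma adjusted p under 0.05), and the dashed line marks SLFN5 at 2.63, to the right of every gene shown.

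The pathways in which the silent relatives act were transcribed in these cells, with more genes that fell than rose in low glucose. Of 18 replication stress genes, the setting in which SLFN11 acts, 0 rose and 13 fell (72.2%, with a median log2 difference of -0.43). Among all genes tested, 14.7% rose and 16.2% fell. The list was chosen with earlier results of these data known, so its share is a description. MCM3, a subunit of the replicative helicase, had a log2 difference of -1.14 (SE 0.0735, limma adjusted p = 9.62e-08). DTL (-0.996, limma adjusted p = 9.46e-07), which directs destruction of the licensing factor CDT1, and the checkpoint mediator CLSPN (-0.94, limma adjusted p = 5.86e-06) fell too. None of the 18 rose under any of the scalings or with any library left out. Of 16 genes of tRNA cleavage and stalled ribosomes, 1 rose and 8 fell (median -0.20). The 1 that rose was ANG, which encodes angiogenin, a ribonuclease that cuts tRNA under stress, with 3 to 7 reads in control against 13 to 31 in low glucose (log2 difference 1.94, SE 0.433, limma adjusted p = 0.00338). ANG shares 203 bp of exon with EGILA on the other strand, which had 194% of its reads and a log2 difference of 3.15, so its value is uncertain. The tRNA 3′ end processing enzyme ELAC2 (-0.66), the ribotoxic stress kinase MAP3K20 (-0.87) and the cap-binding repressor EIF4E2 (-0.59) fell, with limma adjusted p-values of 2.45e-05, 6.62e-05 and 8.82e-05.

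Transcription and chromatin genes linked to SLFN11 also changed while SLFN11 had no read. Of 13 tested, 1 rose (7.69%) and 7 fell (53.8%), against 14.7% and 16.2% of all genes tested. The median log2 difference of the 13 was -0.26. This list, too, was chosen with earlier results of these data known, so its shares are descriptions. UHRF1, a partner of the maintenance DNA methyltransferase, had a log2 difference of -1.46 (SE 0.0761, limma adjusted p = 1.45e-08), and DNMT1 itself fell too (-0.68, limma adjusted p = 3.75e-05). HDAC3, whose exons overlap an antisense gene, fell (-0.49, limma adjusted p = 5.98e-04), and EZH1, a histone methyltransferase, rose (0.69, limma adjusted p = 3.48e-05). FLI1, an ETS factor known to drive SLFN11, had 0 to 3 reads in control against 3 to 6 in low glucose, and ERG had none. PDE3A, the partner of SLFN12, had 0 to 3 reads in control against 1 to 3 in low glucose (limma adjusted p = 0.893), so both partners of that complex had few or no reads. PDE3B, its relative, had a log2 difference of -0.55 (SE 0.140, limma adjusted p = 0.00846), which was lost without low glucose replicate 2 (0.0520, with 0.00168 to 0.0534 across alternatives).

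The genes whose pattern over the 6 libraries was most like that of SLFN5 were TSC22D3, DNAJB9, WIPI1, UNC5B and FUT1. Likeness was the root mean square difference of log2(normalized count + 1) after centring each gene on its mean, and it was 0.106 for TSC22D3, 0.136 for DNAJB9, 0.147 for WIPI1, 0.153 for UNC5B and 0.157 for FUT1. The 5 genes share with SLFN5 the contrast between the conditions, which sets most of this measure, and their ratios of low glucose to control were 6.79, 6.78, 6.92, 6.01 and 8.15. TSC22D3, which encodes a glucocorticoid-induced leucine zipper protein, stood at 17.9, 13.4 and 17.1 normalized counts in control and at 121.2, 107.7 and 100.02 in low glucose. DNAJB9, an endoplasmic reticulum co-chaperone, stood at 91.9, 93.6 and 122.0 in control and at 726, 713 and 644 in low glucose. Among the low-glucose libraries TSC22D3, DNAJB9 and WIPI1 were highest in replicate 1 and lowest in the third library, like SLFN5. UNC5B and FUT1 did not have this order. Likeness was measured over these same libraries, so a shared order is partly set by the choice. WIPI1, an autophagy protein, shares 829 bp of exon with ARSG on the other strand, which had 42.8% of its reads, so its value is uncertain. UNC5B is a netrin receptor, and FUT1 is a fucosyltransferase of blood group synthesis that had 3 to 4 reads in control. No member of the interferon-stimulated list was among these 5. The 5 were picked for a rise like that of SLFN5, and the largest called rise in that list was 1.17 (DHX58). This outcome was therefore set by the choice and is no result on interferon.

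**Figure D4:**
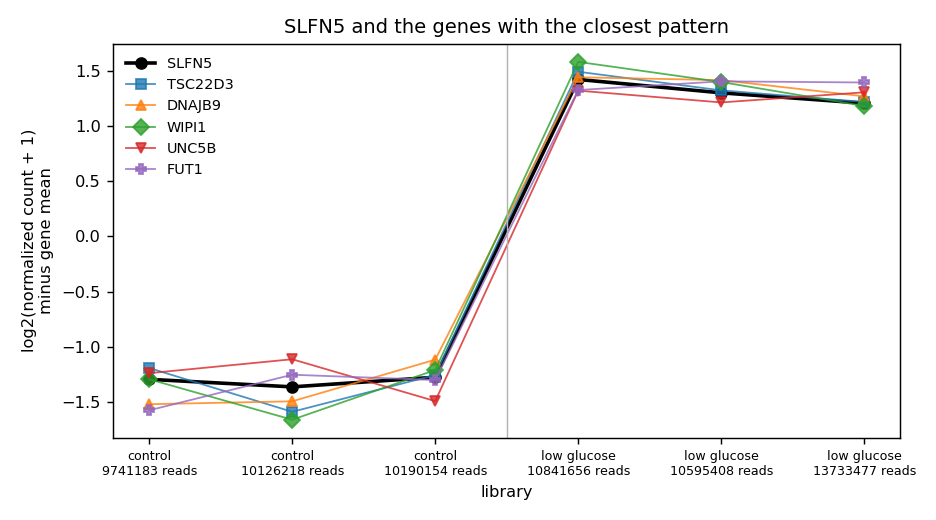
Pattern of SLFN5 (black) and of the 5 genes closest to it over the 6 libraries, as log2(normalized count + 1) minus each gene's mean. All 6 genes lie below their mean in the 3 control libraries and above it in the 3 low-glucose libraries, and the lines of TSC22D3 and SLFN5 differ by 0.106 (root mean square).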

How the data were processed

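RNA-seq was done on 6 libraries of MiaPaCa-2 cells with a strand-specific kit. Per the labels and the methods, the authors trimmed reads with Trim Galore, mapped them to hg38 with STAR 2.7.0e and used DESeq2, and RSEM is listed among the software for RNA-seq. The strand setting and the annotation behind the counts are not given in the sources used here. The table deposited by the authors holds a signal, reads per gene divided by 1 size factor per library. In every library 100% of the values above 0 came out as whole reads (within 0.001 read), so the reads were recovered, and median-of-ratios factors over 17906 genes matched the scaling. Totals of 9741183 to 13733477 reads set the precision. The treatment text lists 2.5 mM for all samples, whereas the titles and the series design describe the control, at 25 mM.

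Identifiers were matched without version to Gencode v44 (99.4%), whose exons gave lengths for TPM and overlaps. Genes with a mean of at least 1 (21101) were compared as log2(value + 1) with limma 3.58.1 (R 4.3.3; moderated test with a mean-variance trend, two-sided, Benjamini-Hochberg adjustment, threshold 0.05). The pseudocount understates changes of genes with few reads. With 3 libraries against 3, an exact permutation test cannot go below 0.1. Each test was also run on simulated counts with far fewer changed genes than were called here, as many higher as lower. That simulation does not cover the setting of these data. Alternatives were library size and TMM scaling, no filter, a mean of at least 5, a pseudocount of 0.1, no variance trend, edgeR 4.0.16 (quasi-likelihood) and DESeq2 1.42.0 on the recovered reads, and each library left out in turn.

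The members and gene lists were chosen with earlier results of these data known. Named genes are the family, the genes within 250 kb of the cluster, the 5 with the pattern closest to SLFN5 (mean of 10 or more), and up to 3 rising and 3 falling genes per list with the lowest adjusted p, or all genes of lists of 6 or fewer. Protein sequences were not used here, and a few genes of the lists are counted but not reported by name here.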

Additional observations from a re-analysis of the deposited data

How the results depend on the processing

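No paired analysis was possible because replicate numbers are missing for 4 of the 6 columns. SLFN5 stayed at a log2 difference of 2.63 to 2.71 under the 8 alternatives with all libraries, and at 2.57 to 2.68 with 1 library left out. The other 4 members had too few reads for a value under any of them. The number of changed genes was 6528 (3111 higher, 3417 lower), 4090 without the variance trend and 4319 to 7251 with 1 library left out, the fewest without low glucose replicate 1. On the recovered reads edgeR called 6554 genes (6120 shared) and DESeq2 5486 (5448 shared). Library size scaling gave 3935 higher and 2647 lower. The number of changed interferon-stimulated genes was 13, with 5 without the variance trend and 8 to 15 with 1 library left out. Of the 58 named genes tested, 39 kept direction and side of the threshold in every fit that gave a value. Signs changed in genes that did not pass the test. IFNLR1 was -0.030 with DESeq2, and with 1 library left out IFNLR1 ranged from -0.21 to 0.46, IFNGR2 from -0.057 to 0.15, PDE3A from -0.48 to 0.58 and SLFNL1 from -0.066 to 0.31. The cause of these shifts was not tested. Depth limits the silent members to an upper bound, and at under 10 reads per library IL10RB, FLI1 and PDE3A have wide errors.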
